A study of Drosophila melanogaster with 4 samples.

Results

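Chemoreceptor genes encode the proteins with which fly sensory neurons detect odours, tastes, humidity and gases. The set described here comprises every gene of the deposited GRO-seq table whose symbol begins with Or, Gr or Ir followed by a digit, which gave 179 of 16612 genes. They were 59 odorant receptor (Or), 60 gustatory receptor (Gr) and 60 ionotropic receptor (Ir) genes, all listed as protein-coding. The data came from Drosophila S2 cells, an established line that came from late-stage embryos and resembles macrophages, grown untreated and with no genotype contrast. GRO-seq was deposited for 2 libraries, called Sample3 and Sample4 after the authors' columns, and 5'GRO-seq for 2 replicates. The labels do not say whether the libraries came from separate cultures, so the spread between them may be technical only.

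Odorant receptors of the fly work as complexes of a tuning receptor with the shared co-receptor Orco. Ionotropic receptors are relatives of ionotropic glutamate receptors, and most of them need one of the co-receptors Ir8a, Ir25a or Ir76b. Gustatory receptors include the sugar, bitter and carbon dioxide receptors. In the animal each receptor gene is as a rule transcribed in a small class of sensory neurons, and S2 cells are not sensory neurons.

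GRO-seq lets engaged RNA polymerases extend their transcripts in isolated nuclei with a labelled nucleotide, so that sequencing of the labelled RNA shows which DNA was being transcribed, whether or not a stable RNA follows. The values are FPKM, fragments per kilobase of the span from annotated start to end, introns included, scaled to a total for each library. 5'GRO-seq enriches capped RNA, and the authors' lists of 6782 and 9387 start sites mark where transcription began. The totals behind the FPKM scaling, worked back from the steps of 1 read, were 6572376 reads in Sample3 and 2474797 in Sample4. Reads recovered per gene summed to 6948116 and 2978646, so these totals were not shown to be library sizes. The 5'GRO-seq libraries held 13979543 and 6710787 reads. The character of the line was checked with marker genes. Of 11 hemocyte markers 10 had a mean of at least 1 FPKM, and of 11 neuron markers 2 did. Over all genes the share was 53.5%. The neuron marker n-syb was also looked up but not found under that symbol. The highest hemocyte marker was Cg25C with 276 and 863 FPKM, and NimC1 was the 1 below the threshold. The 2 neuron markers were elav, with 10.1 FPKM in each library and a start site within 100 bp of its 5' end, and brp with 1.66 and 3.15 FPKM. In mean level elav stood above the hemocyte markers eater, He, Pxn and NimC1. Of 10 markers of sensory neurons and their support cells, 0 had a mean of at least 1 FPKM. Of these 10, Rdl was also counted among the neuron markers. In a single library lush had 1.44 FPKM (Sample3) and amos 1.03 FPKM (Sample4), each listed at 0 in the other, and lush had a start site within 100 bp.

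Most chemoreceptor genes had no GRO-seq read at all. Listed at 0 in both libraries were 116 of 179 (64.8%), against 25.2% of all genes in the table and 19.3% of 6043 other protein-coding genes with a span between 1000 and 3000 bp, the range of 162 of the 179. By family the share was 36 of 59 Or genes (61.0%), 42 of 60 Gr genes (70.0%) and 38 of 60 Ir genes (63.3%). By chromosome arm it ran from 13 of 25 genes on X to 25 of 35 genes on 3L. The median chemoreceptor gene stood at 0 FPKM in each library, and the median of the other protein-coding genes of like span at 5.68 FPKM in Sample3 and 4.14 FPKM in Sample4. The study has 1 cell line and no contrast, so counts are given beside those of other genes and no test across samples was made.

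A listing at 0 sets a limit rather than a true absence. With 3 reads as the count that a 0 still allows, the limit for the 116 genes had a median of 0.273 FPKM in Sample3 (range 0.0554 to 0.400) and 0.726 FPKM in Sample4 (range 0.147 to 1.06). A further 42 genes were above 0 with a mean under 1 FPKM. Of these, 26 had at most 3 reads in both libraries together and 14 had a single read. All 179 genes together held 2152 reads in Sample3 and 852 in Sample4. Limits and intervals here cover counting error only. In such a bulk sample, low transcription in all cells and transcription in few cells cannot be told apart.

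**Figure D1:**
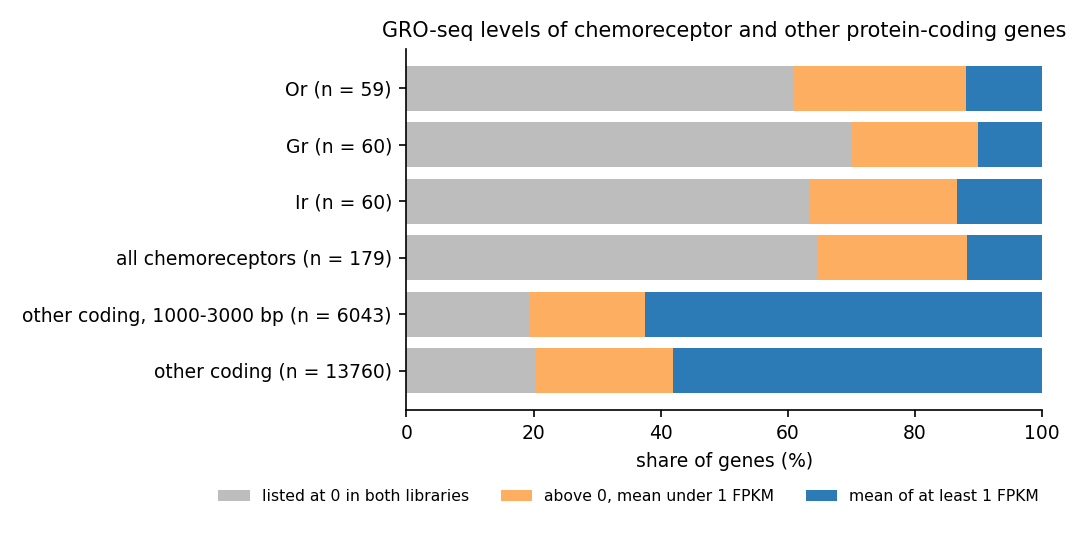
Share of genes (%) listed at 0 in both GRO-seq libraries, above 0 with a mean under 1 FPKM, or with a mean of at least 1 FPKM, for each receptor family, all 179 chemoreceptor genes, other protein-coding genes of 1000 to 3000 bp and all other protein-coding genes. The grey part is the widest in each family (61.0 to 70.0%) and covers 19.3% of the other genes of like span.

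Of the 3 Ir co-receptors only Ir25a, described below, had more than 4 reads in a library. The co-receptor Ir76b was listed at 0, and Ir8a, the co-receptor for acids, had 0.158 and 0.105 FPKM, from 4 reads and 1 read. Orco, which the rule does not take in because its symbol has no digit, had 0.056 FPKM in Sample3 and was listed at 0 in Sample4. The 2 carbon dioxide receptors had 1 read between them: Gr21a was listed at 0, and Gr63a had 0.095 FPKM in Sample3 and 0 in Sample4.

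Of 9 sugar receptor genes looked up, 6 were listed at 0 and 2 had a mean of at least 1 FPKM, and of 4 bitter receptor genes 3 were listed at 0 and 1 reached 1 FPKM. Listed at 0 were all 6 genes of the sugar receptor array Gr64a to Gr64f, of which Gr64b and Gr64c share 1 interval in the table. Gr5a, the trehalose receptor, had 0.651 FPKM and 1.08 FPKM from 8 and 5 reads, and its counting intervals in the 2 libraries overlapped. The bitter receptors Gr32a, Gr33a and Gr93a were listed at 0. Levels of at least 1 FPKM were found for the bitter receptor Gr66a, the fructose receptor Gr43a and the sugar receptor Gr61a, which are described below with their genomic neighbours.

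A mean of at least 1 FPKM was reached by 21 of 179 genes (11.7%), against 53.5% of all genes and 62.5% of the other protein-coding genes of like span. They were 7 Or, 6 Gr and 8 Ir genes, and they held 90.5% of the chemoreceptor reads in Sample3 and 92.6% in Sample4. Ir40a, with a long span of 24850 bp, alone held 568 of the 2152 reads in Sample3 and 428 of the 852 in Sample4. Just above the threshold stood Or7a with 1.27 and 1.12 FPKM. Just below it stood Or42b, a receptor for fruit esters, with 0.578 and 1.23 FPKM, followed by Ir94e with 1.53 and 0.213 FPKM, Gr5a, Or46a with 1.19 and 0.288 FPKM, and Ir100a with 0.924 and 0.446 FPKM. Of the 21 genes, 17 had at least 1 FPKM in each of the libraries.

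**Figure D2:**
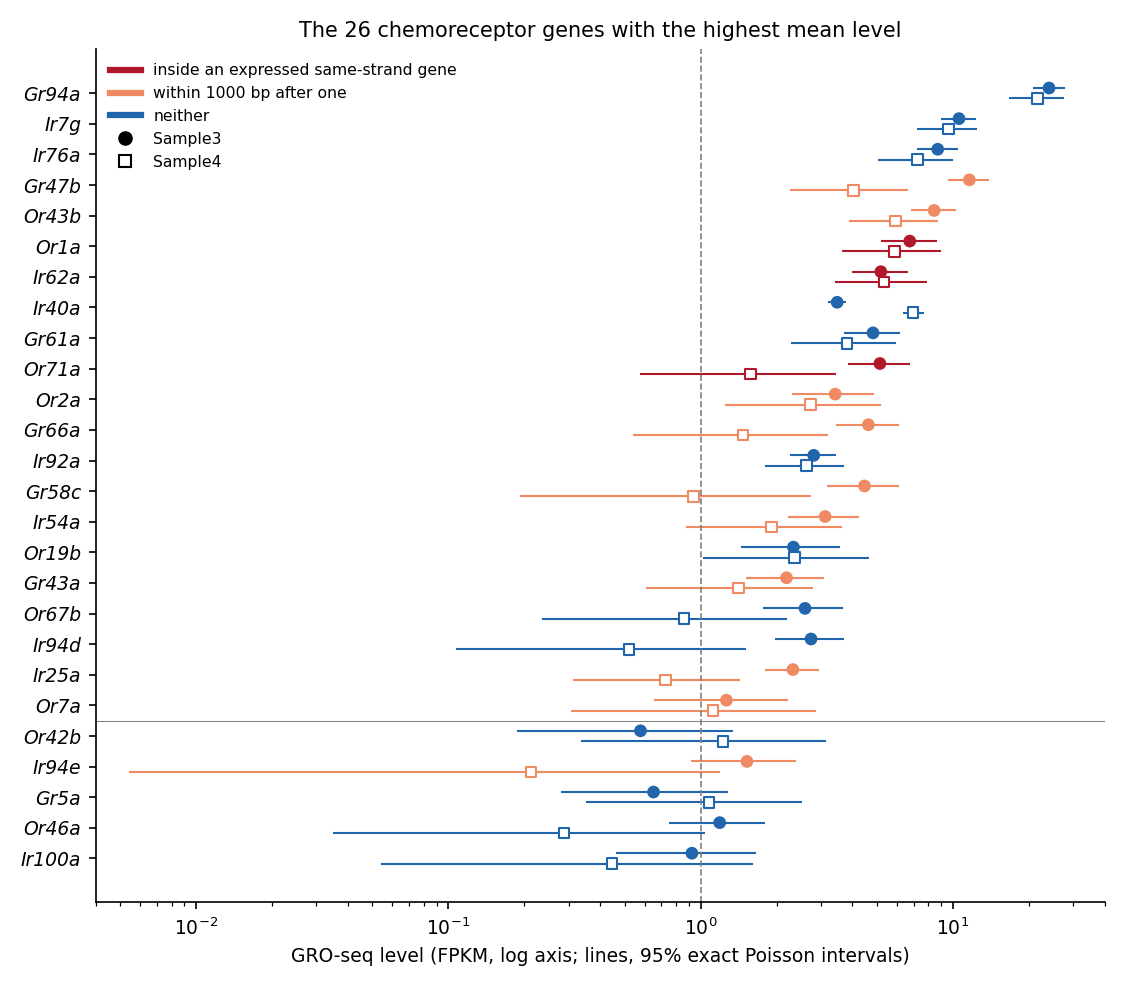
GRO-seq level (FPKM, log axis) of the 26 chemoreceptor genes with the highest mean in Sample3 (filled circles) and Sample4 (open squares), with 95% exact Poisson intervals of the read counts as lines and the dashed line at 1 FPKM. Colours give the position relative to expressed same-strand genes; the 3 highest genes are in neither position, and Gr94a stands apart at 24.1 and 21.6 FPKM.

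Precision was set by few reads. The 21 genes had between 12 and 568 reads in Sample3 and between 3 and 428 in Sample4. Levels were lower in Sample4 for 18 of the 21, against 58.5% of all genes of at least 1 FPKM and 65.5% of other protein-coding genes of like span and level. The exact Poisson intervals of the libraries did not overlap for 7 of the 21, 6 of them lower in Sample4. Intervals were apart for 40.3% of all genes of at least 1 FPKM and for 23.7% of the other protein-coding genes of like span and level.

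Levels were then set beside genomic position. A gene was called inside when at least 0.5 of its span lay within another gene of the same strand with a mean of at least 1 FPKM. It was called just after when its 5' end lay within 1000 bp beyond the 3' end of such a gene. In one of these positions were 16 of the 179 genes. That is a smaller share than the 2743 of all 16612 genes and the 1100 of 6043 other protein-coding genes of like span. Of the 16 genes, 12 had a mean of at least 1 FPKM (75.0%) and 0 were listed at 0 in both libraries. Among all genes in these positions the shares were 83.0% and 2.48%.

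Of the other 163 chemoreceptor genes, 9 reached 1 FPKM (5.52%) and 116 were listed at 0 (71.2%). Away from such neighbours, 47.7% of all genes and 57.8% of 4943 other protein-coding genes of like span reached 1 FPKM. Over the 116 genes listed at 0, the distance from the end of the nearest expressed same-strand gene upstream had a median of 58561 bp, and the shortest was 1903 bp. For the 9 genes of at least 1 FPKM in neither position the median was 24807 bp and the range 1704 to 257659 bp, so the distances overlapped. Within 2000 bp, 20 chemoreceptor genes had such a neighbour or host and 1 of them was listed at 0. Within 5000 bp there were 35, of which 8 were listed at 0.

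**Figure D3:**
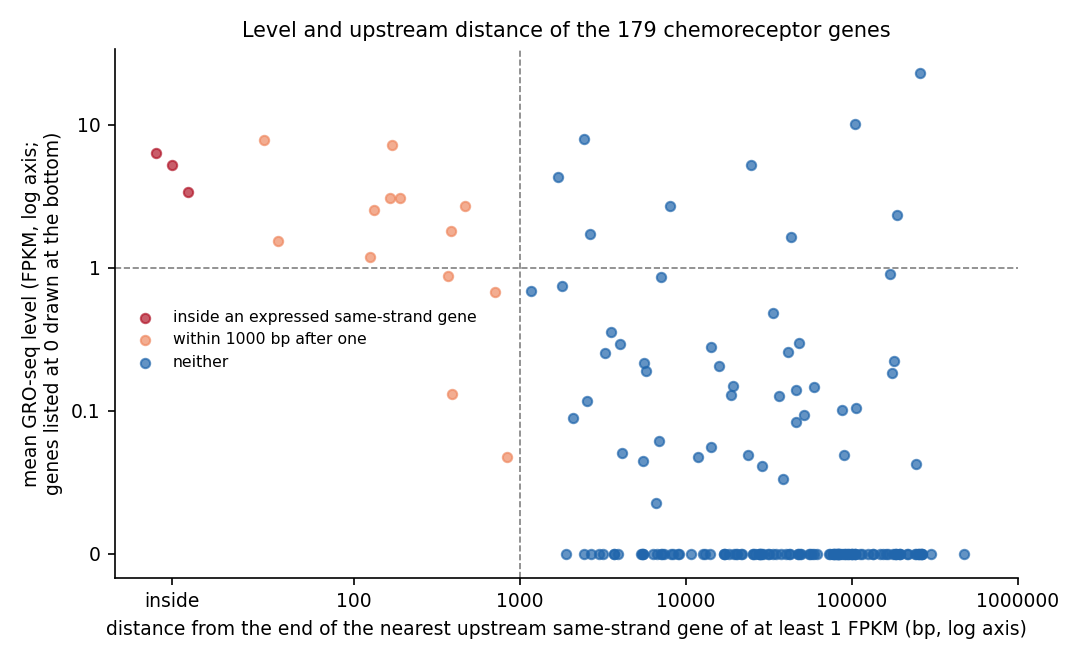
Mean GRO-seq level (FPKM, log axis, genes listed at 0 at the bottom) of the 179 chemoreceptor genes against the distance (bp, log axis) from the 3' end of the nearest upstream same-strand gene of at least 1 FPKM; the 3 genes inside such a gene are at the far left. No gene left of the dashed line at 1000 bp is listed at 0, and 12 of those 16 are above 1 FPKM.

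Of the 21 chemoreceptor genes of at least 1 FPKM, 3 lay inside an expressed same-strand gene (14.3%) and 9 just after one (42.9%). Over all genes of at least 1 FPKM the shares were 7.22% and 18.4%. Over other protein-coding genes of like span and at least 1 FPKM they were 3.39% and 20.9%. The remaining 9 of the 21 were in neither position. By family, 5 of 7 Or genes, 4 of 6 Gr genes and 3 of 8 Ir genes were in one of the positions. Whether polymerases that began at the neighbour account for the reads of the receptor gene was not tested, since FPKM per gene does not show where along the gene the reads lie.

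The 9 genes just after an expressed gene began 29 to 466 bp beyond it. In both libraries all 9 had a lower level than their upstream neighbour. Their level was 12.4 to 62.2% of the neighbour's in Sample3 (median 28.2%) and 3.39 to 73.9% in Sample4 (median 23.1%). The neighbours were chosen for a mean of at least 1 FPKM. How often other genes in this position stand below their neighbour was not counted, so the 9 of 9 has no baseline. FPKM is scaled per kilobase of span, but it does not show where along either gene the reads lie. The percentages therefore compare whole spans only.

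Gr47b (2R, 7249405 to 7250910, plus strand; coordinates here and below are of build dm3) had the highest mean of these genes, with 11.6 FPKM in Sample3 and 4.03 FPKM in Sample4. It began 29 bp after san, an acetyltransferase gene needed for sister chromatid cohesion, which had 23.0 and 17.3 FPKM. The libraries differed for Gr47b by more than counting error, with intervals of 9.60 to 14.0 FPKM and 2.25 to 6.64 FPKM.

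Or43b (2R, 3808340 to 3810109, minus strand) had 8.43 and 5.94 FPKM and lay 171 bp after the histone demethylase gene Kdm4A, which had 13.5 and 8.03 FPKM. This pair was the closest in level, with Or43b at 62.2% and 73.9% of its neighbour. Or2a, 190 bp after the oogenesis gene fs(1)K10, had 3.42 and 2.72 FPKM, against 6.51 and 6.83 FPKM of the neighbour. Or7a, 125 bp after CG2278, had 1.27 and 1.12 FPKM, against 2.37 and 2.83 FPKM. For these 3 Or genes the intervals of the libraries overlapped.

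Gr66a (3L, 8298436 to 8300080, minus strand), a bitter receptor that takes part in caffeine detection, had 4.63 FPKM in Sample3 and 1.48 FPKM in Sample4. It began 165 bp after BI-1, the Bax inhibitor gene, with 22.5 and 18.0 FPKM. Gr58c, 466 bp after CG9304, had 4.47 and 0.936 FPKM. Gr43a, 385 bp after CG1707, had 2.19 and 1.41 FPKM. Gr66a and Gr58c were lower in Sample4 with intervals that did not overlap, and those of Gr43a overlapped.

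Ir25a (2L, 4830846 to 4835300, minus strand), the most widely used co-receptor of the family, was the only one of the 3 Ir co-receptors to reach 1 FPKM. It had 2.32 FPKM from 68 reads in Sample3 and 0.726 FPKM from 8 reads in Sample4, and the intervals did not overlap. Its 5' end was 35 bp after tank, which had 18.8 and 21.4 FPKM. In Sample4 Ir25a thus had 3.39% of the level of its neighbour, the lowest share of the 9 pairs. Ir54a, 132 bp after CG4996, had 3.12 and 1.91 FPKM, with overlapping intervals.

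**Figure D4:**
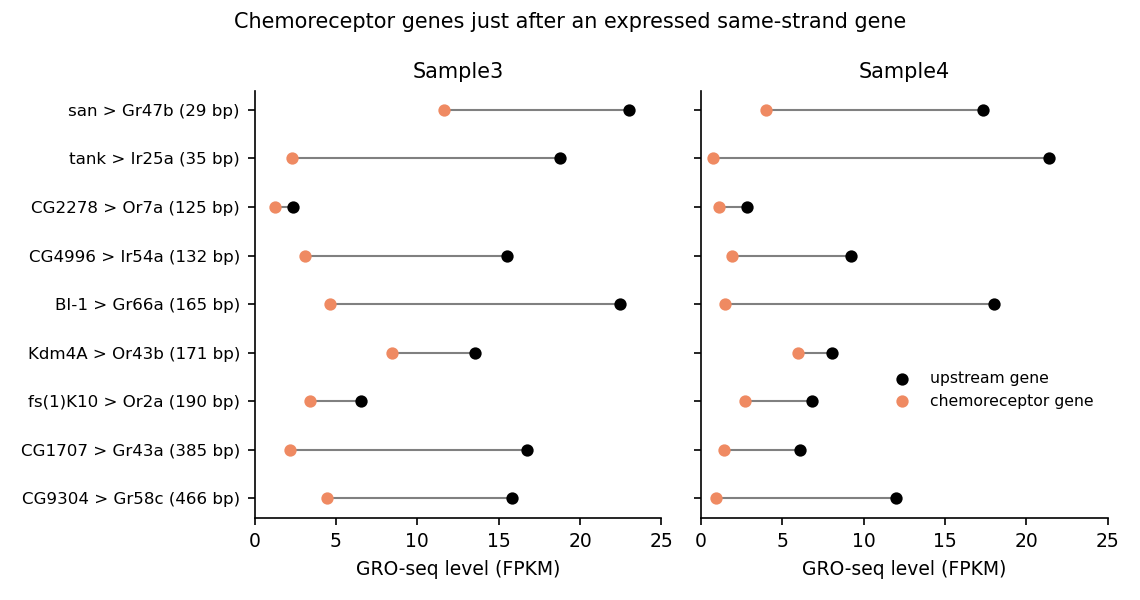
GRO-seq level (FPKM) of the 9 chemoreceptor genes of at least 1 FPKM that begin within 1000 bp after an expressed same-strand gene (orange) and of that upstream gene (black), in Sample3 and Sample4, ordered by distance (bp in brackets). In each of the 9 pairs and in both libraries the orange point lies left of the black one. The upstream genes were chosen by level, and the same count over other genes was not made.

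The 4 other genes just after an expressed gene stayed below the threshold. Ir94e lay 370 bp after Ir94d, Ir20a 709 bp after CR45509, Ir8a 393 bp after mxc and Gr63a 841 bp after Ccz1, and each had a mean under 1 FPKM. The histone locus gene mxc had 9.29 and 12.5 FPKM, and Ir8a behind it had 4 reads in Sample3 and 1 in Sample4.

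The 3 nested genes differed from each other in how they stood to their hosts. Or71a (3L, 15070007 to 15071547, minus strand), a receptor for smoky phenols, had 5.14 and 1.57 FPKM inside cp309, a gene of the centrosome, which had 21.2 and 11.2 FPKM. Ir62a had 5.18 and 5.33 FPKM inside CG12090, with 6.59 and 9.06 FPKM. Both were lower than the rest of the host, whose level without the nested span was 23.3 and 12.5 FPKM for cp309 and 6.88 and 9.83 FPKM for CG12090.

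Or1a (X, 209156 to 210599, plus strand), a larval receptor, was the opposite case. It had 6.75 FPKM in Sample3 and 5.88 FPKM in Sample4 inside CG3777, whose level without the span of Or1a was 3.10 and 2.54 FPKM. A start site of replicate 2 lay at position 209158, 2 bp inside the annotated 5' end of Or1a. In replicate 1 the nearest site on its strand was at -35442 bp, where a minus sign means upstream. The position also lies inside CG3777, which spans 70499 bp.

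Called start sites were rare at chemoreceptor genes. On the strand of the gene and within 100 bp of its annotated 5' end, a site of either list was present at 3 of 179 genes (1.68%), against 28.6% of all genes and 34.8% of other protein-coding genes of like span. All 3 were among the 21 of at least 1 FPKM, of which they make 14.3%. Of the other protein-coding genes of like span and at least 1 FPKM, 54.2% had a site. That set was not matched for level, since its highest mean was 1906 FPKM, against 22.8 FPKM among the 21. The 3 genes with a site were Or1a, Ir76a and Ir25a. Only Ir76a had a site in both lists. The list of replicate 2 is the longer, yet it marked 2451 of all 16612 genes in this way, against 4066 for replicate 1. The authors kept sites at least 4-fold above the GRO-seq signal and above their surroundings, and weaker starts are not in the lists.

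Ir76a (3L, 19794518 to 19796527, plus strand), which with Ir76b detects amines, had 8.71 and 7.24 FPKM (7.98 ± 1.04, SD, n = 2). Its site lay at position 19794439 in both lists, 79 bp upstream of the annotated 5' end. The same position was 48 bp from the 5' end of CG14102, a gene on the opposite strand with 4.80 and 2.97 FPKM, so the 2 genes are arranged head to head around it. The nearest expressed gene upstream on its own strand, HLH106, the fly SREBP gene, ended 2439 bp away and had 185 and 271 FPKM. Ir76b, the partner of Ir76a, was listed at 0.

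The site at Ir25a was of another kind. It was called in replicate 2 alone, 98 bp upstream of the 5' end at position 4835398, and this base lies inside the 3' end of tank. Replicate 2 had a further site in the body of tank, 1143 bp upstream of Ir25a. Like sites inside the upstream gene, in replicate 2 alone, lay 229 bp before Or2a in fs(1)K10, 233 bp before Gr66a in BI-1 and 466 bp before Ir54a in CG4996. The longer list of replicate 2 marked fewer annotated 5' ends over all genes than that of replicate 1, which limits what its sites alone show.

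Inside the span, a same-strand site was found at 3 genes, namely Or1a, Ir40a and Or82a. How many other genes have a site inside the span was not counted, so the 3 have no baseline. The count also depends on span, which was 24850 bp for Ir40a against a median of 1679 bp. In Or82a the site lay 1241 bp from the 5' end and was called in replicate 1 alone. When sites on either strand were counted within 100 bp, Or49b joined the 3 genes. Its opposite-strand site lay 86 bp upstream in both lists, at the 5' end of Cyp9h1, and Or49b itself was listed at 0.

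Gr94a (3R, 18877411 to 18878625, plus strand) had the highest level of all 179 genes, with 24.1 FPKM from 192 reads in Sample3 and 21.6 FPKM from 65 reads in Sample4 (22.8 ± 1.72, SD, n = 2). The libraries differed by less than counting error. It lies entirely inside p53, the damage response factor gene, but on the opposite strand, and p53 had 27.6 and 16.7 FPKM. The nearest same-strand gene of at least 1 FPKM upstream ended 257659 bp away. A same-strand start site of replicate 1 lay at position 18877239, 172 bp upstream of the annotated 5' end and outside any annotated same-strand gene. Replicate 2 had no site there. The p53 gene had its own site in both lists, 1 bp from its annotated 5' end.

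Entirely inside an opposite-strand gene of at least 1 FPKM were 12 of the 179 genes. That is a larger share than the 476 of 13760 other protein-coding genes and the 193 of 6043 of like span. Of the 12 genes, 3 were listed at 0 (25.0%) and 9 had reads, whereas 64.8% of all 179 were listed at 0. Most of the 9 had no more than 2 reads in either library, under the 3 reads that a 0 still allows. The contrast in genes listed at 0 thus rests on few reads. Gr94a alone of the 12 had a mean of at least 1 FPKM (8.33%, against 11.7% of all 179). Among 193 other protein-coding genes of like span in such a host, 26.9% were listed at 0 and 38.3% had a mean of at least 1 FPKM. The medians of these 12 genes were 0.0885 FPKM in Sample3 and 0.138 FPKM in Sample4. Gr39a had 0.554 FPKM and 0 inside Mio, which had 19.8 and 17.5 FPKM. The 3 listed at 0 were Gr9a, Or94a and Or94b.

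**Figure D5:**
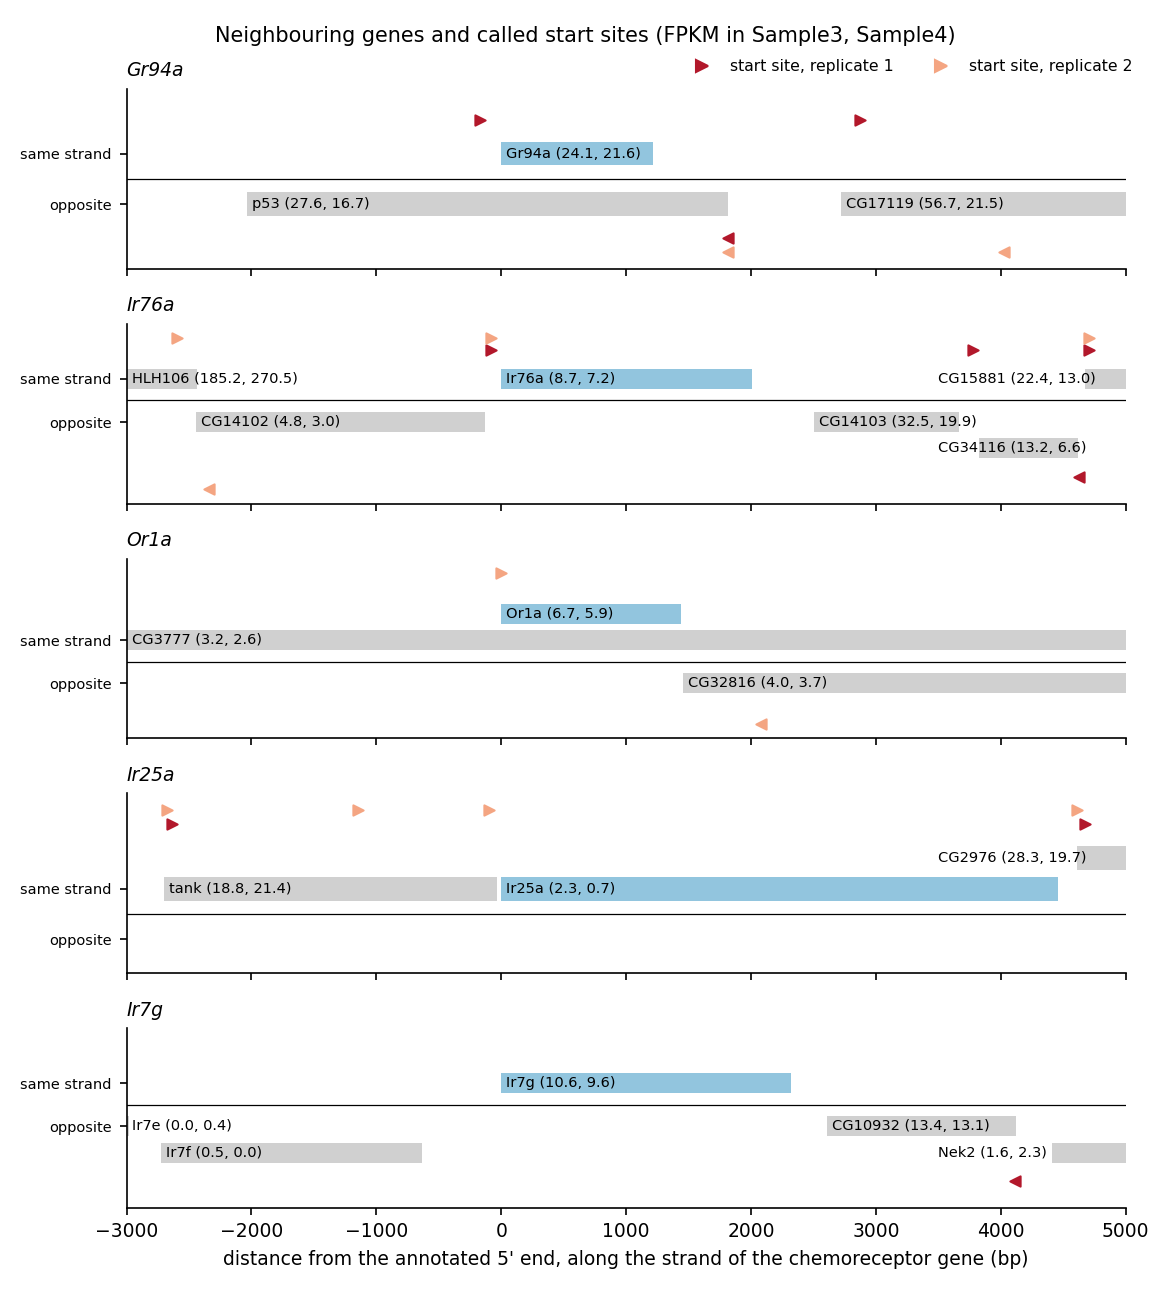
Genes (bars, with FPKM in Sample3 and Sample4) and called start sites (triangles, dark for replicate 1, light for replicate 2) around 5 chemoreceptor genes (blue), by distance in bp from the annotated 5' end along the strand of that gene. Ir76a has sites of both lists at -79 bp, Gr94a a site of replicate 1 at -172 bp, Or1a a site of replicate 2 at 2 bp, Ir25a a site of replicate 2 at -98 bp in the end of tank, and Ir7g no same-strand site in the window.

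Ir7g (X, 7778693 to 7781009, plus strand) ranked second, with 10.6 FPKM from 161 reads in Sample3 and 9.60 FPKM from 55 reads in Sample4 (10.1 ± 0.694, SD, n = 2), a difference within counting error. It was neither inside nor just after an expressed gene, the nearest one upstream on its strand ending 105290 bp away. The nearest sites on its strand lay downstream, at 24277 bp in replicate 1 and 12022 bp in replicate 2. The other members of its array, Ir7c to Ir7f, were listed at 0 or had at most 0.510 FPKM in a library.

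Ir40a, which takes part in humidity sensing, was the gene with the clearest difference between the libraries in the other direction. It had 3.48 FPKM from 568 reads in Sample3 and 6.96 FPKM from 428 reads in Sample4, with intervals of 3.20 to 3.78 FPKM and 6.32 to 7.65 FPKM. Its span of 24850 bp (2L, 22189526 to 22214376, minus strand) is far longer than the median of 1679 bp over the 179 genes. Both lists had a same-strand site at position 22192084, 22292 bp inside the gene and thus near its 3' end, and replicate 1 had an opposite-strand site at position 22192238. Neither list had a same-strand site within 100 bp of the annotated 5' end of Ir40a.

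Gr61a, a glucose receptor, had 4.83 and 3.80 FPKM and began 1704 bp after CG13887, which had 59.5 and 59.1 FPKM. Or67b had 2.59 and 0.861 FPKM and began 2641 bp after fry, with 17.1 and 16.8 FPKM. Ir92a, a receptor for ammonia, had 2.81 and 2.62 FPKM, 8058 bp after Sirt2. Ir94d had 2.74 and 0.520 FPKM from 42 and 3 reads, with intervals that did not overlap. Ir94e behind it had 19 reads and 1 read, with intervals that overlapped. None of these 4 had a same-strand site within 100 bp.

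Or19b had 2.33 FPKM and 2.36 FPKM from 21 and 8 reads, whereas its near-identical copy Or19a, a receptor for citrus odours, was listed at 0. Reads of such copies can be split or lost in alignment, so the values of both are uncertain.

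Chemoreceptor genes often lie in small arrays of related genes. When members at most 5000 bp apart on either strand were chained, 79 genes fell into 28 arrays and 100 stood alone. In the arrays 58 of 79 genes were listed at 0 (73.4%) and 3 reached 1 FPKM (3.80%), namely Ir7g, Gr58c and Ir94d. Of the genes that stood alone 58 of 100 were listed at 0 and 18 reached 1 FPKM. All members were listed at 0 in 13 of the 28 arrays, among them Gr64a to Gr64f, Ir52a to Ir52d, Or33a to Or33c and Gr36a to Gr36c.

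Other gene families of chemosensation are given for comparison. Of 52 odorant binding protein genes, which encode small carriers of the sensory lymph, 37 were listed at 0 (71.2%) and 6 had a mean of at least 1 FPKM. The 3 highest were Obp18a with 28.6 and 3.59 FPKM, Obp99c with 15.1 and 8.10 FPKM and Obp99a with 11.1 and 4.50 FPKM. All 3 were higher in Sample3. Of 20 CheA and CheB genes 14 were listed at 0 and 5 reached 1 FPKM, led by CheB42c with 4.79 and 3.33 FPKM. CheB42c lies inside mim and has a same-strand start site within 100 bp of its own 5' end.

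Among 29 pickpocket sodium channel genes 10 were listed at 0 (34.5%) and 4 reached 1 FPKM, with ppk13 highest at 6.52 and 3.50 FPKM. Of the 10 ionotropic glutamate receptor genes found, the family from which Ir genes derive, 3 were listed at 0 and 0 reached 1 FPKM. Snmp1, a membrane protein of pheromone-sensing neurons, had 0.674 and 0.448 FPKM, and Snmp2 was listed at 0.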

How the data were processed

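The authors deposited a table of FPKM for GRO-seq, with 1 transcript per gene. Start sites were called by the authors for each library; per the file headers this was done with HOMER in its mode for start sites, and the deposited score column is constant and was not used. CASAVA 1.8.2, Bowtie2 2.1.0, HOMER 4.7 and build dm3 are listed in the submitters' processing notes, with no alignment settings. The GRO-seq columns carry no replicate number.

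Whole reads were recovered from FPKM times span: within 0.1 read, 100% of 1941 and 2415 low values were whole. They served for depth, limits and exact Poisson intervals (95%), not for a test. Recovery was checked on simulated data. Site positions are interval centres counted from 1. Recounted so, the edge of site offsets at annotated 5' ends fell at 0 bp on both strands.

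The members and lists were chosen with earlier results of these data known. Named genes were all members of at least 1 FPKM with their neighbours, the next 5, members with a site, the 3 highest of each family, and co-receptors, carbon dioxide, sugar and bitter receptors. Gr39a, Gr9a, Or94a, Or94b, Or19a, Or82a, Or49b, the arrays and the members near a neighbour but under 1 FPKM were named after their values were seen. Of 179 accessions, 177 were in a RefSeq table of a later assembly, all with the same symbol. Alternatives varied thresholds, distances, libraries, lists and strand. No sequence is printed, since no sequence file was used here. Python 3.11.15, numpy 2.4.6, pandas 2.3.3, scipy 1.17.1 and matplotlib 3.10.9 were used.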

Additional observations from a re-analysis of the deposited data

How the results depend on the processing

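The count of chemoreceptor genes listed at 0 was 62 when the 105 genes with a span of at least 1500 bp were kept, by construction of that setting, and 120 to 137 in a single library. Genes of at least 1 FPKM numbered 19 to 23 in a single library, and 27 or 16 with a threshold of 0.5 or 2 FPKM. With a neighbour of at least 10 FPKM, 1 gene of at least 1 FPKM lay inside a host, and 9 of the 179 genes were in either position. Single libraries gave 3 genes of at least 1 FPKM inside a host and 7 to 10 just after one. Start sites within 50 bp were at 1 gene and within 500 bp at 7 genes; without replicate 2 the count within 100 bp was 1, and without replicate 1 it was 3. The alternatives for both positions together were chosen after seeing the data. Distances of 2000 and 5000 bp put 20 and 35 genes in either position, of which 1 and 8 were listed at 0. At 1000 bp the count listed at 0 was 0 with both libraries and with Sample3 alone, and 1 with Sample4 alone (single libraries 0 to 1). Beyond the construction of each setting, the cause was not tested. No paired analysis was possible because the GRO-seq columns carry no replicate number and no groups are compared. At the depth of Sample4, levels under about 1 FPKM rest on few reads.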
